A study of Mus musculus with 10 samples.

Results

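The mitochondrial ribosomal proteins are the protein components of the ribosome inside mitochondria. On the array used here they were taken as every probe set annotated with exactly 1 gene symbol that starts with Mrpl (large subunit) or Mrps (small subunit) and a number. This gave 156 probe sets of 45101 and 76 genes of 18194, 47 of the large and 29 of the small subunit. The brightest probe set, by its mean over the arrays, stood for each gene, and all 76 genes passed the filter on low signals in this way, while 129 of the 156 probe sets passed it and 27 did not. The brightness of a probe set depends on its probes and is not a transcript level that can be set against another gene. The kidneys came from male C57BL/6 mice aged 30 months, with no genetic change named in the labels. A group of 5 mice had been under long-term calorie restriction, of a degree and length the labels do not state, and a group of 5 mice had eaten a control diet. Each mouse was measured on an array of its own, an Affymetrix expression array on which short probes report the abundance of transcripts as a MAS5 signal in linear units. The comparison asks which transcripts of the mitochondrial ribosome differ in the old kidney under lasting calorie restriction.

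Mitochondrial ribosomes translate the few messages of the mitochondrial genome, all of which encode core subunits of the respiratory chain and the ATP synthase. All their proteins are encoded in the nucleus, made in the cytosol and imported. Some descend from bacterial ribosomal proteins, and others have no bacterial counterpart and were added in the mitochondrial lineage. The kidney, and its proximal tubule above all, is rich in mitochondria because solute reabsorption runs on ATP.

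Promoter sequence was available for 67 of the 76 genes, as windows of 250 bases before to 50 bases after the start of the gene in RefSeq annotation of the mouse build GRCm38.p6. Of these, 5 are shown because the expression values below turn on them or because they display the letters and the layout that many of the genes have in common. They run 5′ to 3′ on the strand of the named gene and end 30 bases after its start, and where a neighbouring gene starts in the other direction they begin 30 bases inside it. Capitals mark the motifs searched, named in the next paragraph. Mrpl44, the gene that passed the test, is at chr1:79775768-79776047 on the plus strand. It holds none of these motifs in the exact letters searched. Mrpl2, at chr17:46646050-46646250 on the plus strand, holds an E-box at position -131 from its start. Klc4 runs the other way from a start 141 bases off, close to that E-box. Mrps18c, at chr5:100798570-100798788 on the plus strand, holds an E-box next to an ETS motif, here on the opposite strand. These lie at positions -163 and -156, around the start of Helq, which runs the other way from 159 bases off. Mrpl33, at chr5:31613701-31613980 on the plus strand, holds the NRF1 core, on the opposite strand, beside an ETS motif that spans the start. Mrpl46, at chr7:78783060-78783161 on the minus strand, shares its start region with Mrps11, which runs the other way from a start 42 bases off.
Mrpl44: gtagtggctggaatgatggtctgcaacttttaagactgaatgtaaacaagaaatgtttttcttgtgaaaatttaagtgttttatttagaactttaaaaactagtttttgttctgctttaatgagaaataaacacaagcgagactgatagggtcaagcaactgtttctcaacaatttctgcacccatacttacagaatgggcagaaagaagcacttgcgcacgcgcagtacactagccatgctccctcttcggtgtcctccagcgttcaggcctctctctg
Mrpl2: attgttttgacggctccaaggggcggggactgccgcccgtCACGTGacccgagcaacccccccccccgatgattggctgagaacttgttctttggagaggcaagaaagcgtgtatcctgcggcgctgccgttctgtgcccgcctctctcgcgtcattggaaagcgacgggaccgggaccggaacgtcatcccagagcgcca
Mrps18c: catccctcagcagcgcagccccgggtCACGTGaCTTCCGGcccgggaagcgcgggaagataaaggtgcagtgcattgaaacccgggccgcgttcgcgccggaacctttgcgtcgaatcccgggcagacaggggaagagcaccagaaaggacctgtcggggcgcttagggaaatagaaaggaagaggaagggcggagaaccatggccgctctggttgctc
Mrpl33: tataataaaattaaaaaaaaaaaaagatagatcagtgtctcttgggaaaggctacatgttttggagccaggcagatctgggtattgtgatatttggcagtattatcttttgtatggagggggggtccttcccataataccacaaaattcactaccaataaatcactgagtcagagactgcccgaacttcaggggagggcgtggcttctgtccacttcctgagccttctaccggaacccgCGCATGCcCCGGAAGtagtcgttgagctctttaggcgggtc
Mrpl46: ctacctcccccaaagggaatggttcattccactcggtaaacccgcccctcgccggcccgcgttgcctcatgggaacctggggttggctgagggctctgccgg

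Motifs were searched as exact letters on both strands of the whole windows, so sites in other spellings were not counted. The ETS motif CCGGAAG, the core site of GABP, a factor known for driving nuclear genes of mitochondria, stood in 24 of 67 windows (35.8%), against 11.8% of the windows of 17424 other protein-coding genes. The letters AAGATGG of the YY1 site stood in 13 windows (19.4%), against 6.32% of the others, and the NRF1 core GCATGCG in 8 (11.9%), against 4.45%. The E-box CACGTG stood in 5 windows (7.46%), against 7.90%. At least 1 of these motifs was in 38 windows (56.7%), against 26.4%. A start of another protein-coding gene, running the other way within 1000 bases, was found for 23 of the genes (34.3%), against 8.38% of the other genes. Among these pairs were Mrps12 with Sars2, the mitochondrial seryl-tRNA synthetase, 147 bases apart, Mrpl43 with Twnk, the helicase of mitochondrial DNA, 116 bases apart, and Mrpl47 with Ndufb5, a complex I subunit, 308 bases apart. These are descriptions of letters and positions and were not tested.

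Before the results, 3 arrays need to be named. Shorter RNA or incomplete labelling raises the log2 ratio of 3′ to 5′ control probe sets for Gapdh and Actb. This ratio averaged 1.67 ± 0.46 in calorie-restricted kidney and 1.05 ± 0.26 in control kidney (SD, n = 5 each, 2-sided exact permutation p = 0.0476). Calorie-restricted replicates 1, 2 and 3 had 2.21, 2.01 and 1.75, above all controls, while calorie-restricted replicates 4 and 5 had 1.24 and 1.16, within the control range of 0.76 to 1.39. The ratio for another control transcript, Pcx, did not set these arrays apart. It was 4.69, 4.86, 5.35, 4.83 and 4.78 on calorie-restricted arrays 1 to 5 and 4.57, 4.42, 4.41, 5.02 and 5.20 on control arrays 1 to 5 (exact permutation p = 0.389, 2-sided), so that calorie-restricted replicate 1 was the lowest of its diet. The choice of the 3 arrays therefore rests on Gapdh and Actb. All results are given over all 10 arrays, with values from replicates 4 and 5 of each diet beside those of the genes described in most detail. The label kidney fitted the markers: all 10 proximal tubule markers measured passed the filter, among them Slc34a1, the apical phosphate transporter. Of these 10, 7 rose under calorie restriction, while of all tested genes 3.08% rose and 3.02% fell. These shares were not matched to the markers for brightness, and differences of other genes drifted upwards in the brightest bins, as described below. The summed signal of the list was 170725 to 205037 on calorie-restricted and 119504 to 148376 on control arrays. Averaged over arrays, the gene-centred log2 median of the list was 0.20 in calorie-restricted and -0.21 in control kidney. After quantile normalization it was 0.093 and -0.12. Of adipocyte markers 2 of 4 fell (summed signal 6598 to 11775 against 14247 to 19995), as did 1 of 4 podocyte, 1 of 6 macrophage and 1 of 4 B and plasma cell markers, while 1 of 7 collecting duct and 1 of 4 liver markers rose. The part of these shifts in the values of the mitochondrial ribosomal proteins was not tested, and in whole tissue fewer cells of a type and less RNA per cell cannot be told apart.

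Of the 76 genes of the mitochondrial ribosome, 1 passed the test of the difference between the diets. Mrpl44, a large-subunit protein of the RNase III family, rose in calorie-restricted kidney at an adjusted p of 0.049 (limma, Benjamini-Hochberg over 22517 tested probe sets, threshold 0.05). Of all 12196 genes tested, 6.1% passed, 376 (3.08%) higher and 368 (3.02%) lower (173 higher and 674 lower after median centring), and of 2031 other genes between the brightness quartiles of these 76 genes, 7.98% passed (3.15% higher). No gene of the set passed as lower, with 7 lower and 9 higher at an unadjusted p under 0.05. Those 16 were 21.1% of the set, against 26.4% of all genes and 32.6% of the genes of like brightness. At a looser threshold of 0.10 on the adjusted p, 7 of the 76 genes passed, 6 of them higher, against 14.8% of all genes. The signals of the diets did not overlap in 2 of the 76 genes, Mrpl2 and Mrpl4, both higher, against 7.49% of all genes (3.8% as higher).

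In log2 units, calorie restricted minus control, the 76 differences ran from -0.36 to 0.41 with a median of 0.047, and 44 were above 0. The median over all tested genes was -0.0052 and over the 2031 genes of like brightness -0.012. The 38 genes of the set within that same band of brightness had a median of 0.0080, with 19 above and 19 below 0. The large subunit had a median of 0.063 with 28 of 47 genes above 0, and the small subunit 0.017 with 16 of 29 above 0. The difference between the subunits was not tested. For 65 of the 76 genes (85.5%) the 95% interval of the difference lay within 1.5-fold in either direction, against 60.1% of all tested genes. Their median absolute difference was 0.13, against 0.19 over all genes and 0.18 at like brightness. Their median standard deviation within a diet was 0.18, against 0.23 over all genes and 0.19 at like brightness.

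**Figure D1:**
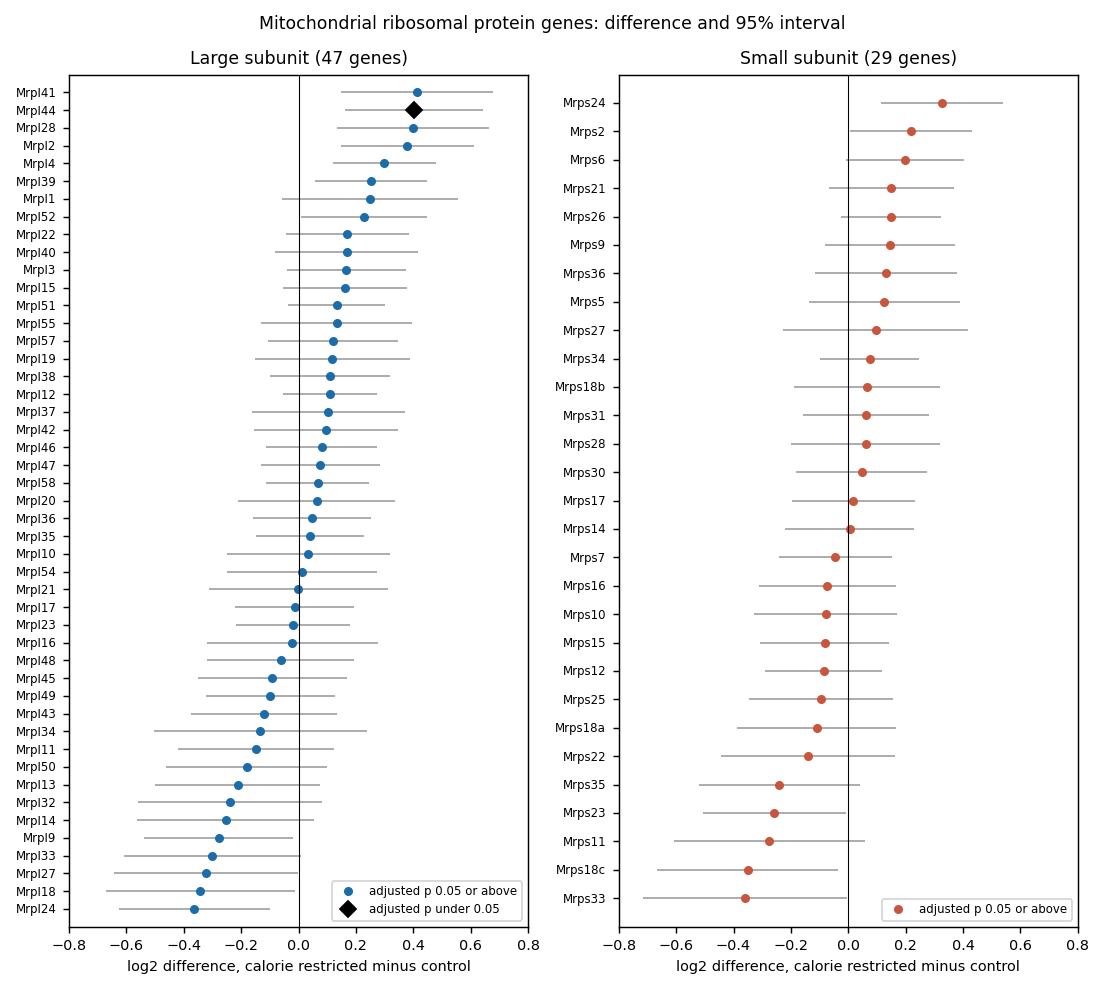
The log2 difference of each mitochondrial ribosomal protein gene, calorie restricted minus control, is plotted as a point with its 95% interval as a bar, for the large subunit (left, 47 genes) and the small subunit (right, 29 genes), sorted by size. The points run from -0.36 to 0.41 in the large and from -0.36 to 0.33 in the small subunit. Mrpl44, drawn as a black diamond, is the 1 gene with an adjusted p under 0.05.

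Mrpl44 had signals of 3909, 3715, 3649, 3319 and 3135 in calorie-restricted replicates 1 to 5, against 3365, 2255, 2785, 2463.5 and 2612 in control replicates 1 to 5. All calorie-restricted values but those of replicates 4 and 5 lay above every control, and control 1 alone reached into the calorie-restricted range. The means were 3545 ± 313 and 2696 ± 422 (SD, n = 5 each), a log2 difference of 0.40 ± 0.11 (SE) with a 95% interval of 0.16 to 0.64. Without calorie-restricted replicate 1, 2 or 3 the adjusted p was 0.115, 0.114 or 0.106, and without control 2, 3, 4 or 5 it was 0.115, 0.0833, 0.0979 or 0.0774. In replicates 4 and 5 of each diet alone the difference was 0.35, with an adjusted p of 0.207, and over all alternatives tried the adjusted p ran from 0.0201 to 0.987.

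The other 3 tested probe sets of Mrpl44 did not pass, and they differed in direction. The next in brightness had 2208 ± 198 in calorie-restricted and 1893 ± 203 in control kidney, a log2 difference of 0.22 (adjusted p = 0.18). The remaining pair had differences of -0.15 and -0.46 (adjusted p = 0.59 and 0.276). The mean over all 4 differed by 0.0041, with an adjusted p of 0.987.

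Among large-subunit proteins that descend from bacterial ones, Mrpl2 and Mrpl4 had the clearest separation of the diets, without passing the test. Mrpl2, which lies near the catalytic centre of the large subunit, had 3195, 3767, 3719, 3740 and 3575 in calorie-restricted kidney and 3033, 2961, 3178, 2522 and 2232 in control kidney. Every calorie-restricted value was above every control. The log2 difference was 0.38 ± 0.11 (adjusted p = 0.0515), and 0.62 in replicates 4 and 5 alone. Mrpl4, which lines the exit tunnel for the new chain, had 4009, 4054, 4235, 4366 and 4513 in calorie-restricted kidney and 3946, 3230, 3382, 3355 and 3324 in control kidney, again without overlap, though control 1 came close. Its difference was 0.30 ± 0.084 (adjusted p = 0.0507), and 0.41 in replicates 4 and 5 alone. Mrpl4 was singled out after its values were seen.

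Mrpl28, another protein with a bacterial counterpart, had 5232, 4907, 3831, 4182 and 4493 in calorie-restricted and 4368, 3778, 3107, 2941 and 3085 in control kidney. The groups overlapped through control 1, and the difference of 0.40 ± 0.12 did not pass (adjusted p = 0.0662), with 0.53 in replicates 4 and 5 alone. Its other 2 probe sets had differences of 0.094 and 0.27, the same direction at smaller size. At the other end stood Mrpl24, known in bacteria as an early assembly protein. It had 2486, 2620, 2721, 3880 and 3544 in calorie-restricted and 3736, 4139, 3966, 3631 and 3866 in control kidney. Calorie-restricted replicates 1, 2 and 3 were far below every control, replicate 5 was just below them and replicate 4 lay among them. The difference over all arrays was -0.36 ± 0.12 (adjusted p = 0.0848), and in replicates 4 and 5 alone it was -0.015.

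Mrpl12 and Mrpl11 belong to the stalk of the large subunit that recruits translation factors. Mrpl12, which also binds the mitochondrial RNA polymerase, averaged 5709 ± 221 in calorie-restricted and 5299 ± 326 in control kidney, a difference of 0.11 with a 95% interval of -0.055 to 0.27. Mrpl11, at the base of the stalk, averaged 1819 ± 316 and 2009 ± 257 (calorie restricted and control), a difference of -0.15 (-0.42 to 0.12). Mrpl1, of the mobile stalk on the other side, was read from one of the dimmest probe sets and averaged 383 ± 50.2 and 323 ± 49.9 in the same order, a difference of 0.25 (-0.059 to 0.56). None of the 3 passed (adjusted p = 0.388, 0.484 and 0.29), and in replicates 4 and 5 alone they had 0.15, 0.25 and 0.56. Mrpl3, a core protein mutated in human mitochondrial disease, had a difference of 0.17 (-0.040 to 0.37), and Mrpl19, read from another of the dimmest, 0.12 (-0.15 to 0.39). These were 0.35 and 0.29 in replicates 4 and 5 alone. Dimmer tested probe sets had differences of -0.30 for Mrpl1, 0.18 and 0.34 for Mrpl11, and -0.14 and -0.15 for Mrpl3. Those of Mrpl19 had 0.069 and -0.87, the latter with an interval of -1.52 to -0.22 (limma, adjusted p = 0.093). Mrpl33, whose promoter is shown above, had 848 ± 116 in calorie-restricted and 1053 ± 209 in control kidney, a difference of -0.30 (-0.61 to 0.0082, adjusted p = 0.202) that was -0.15 in replicates 4 and 5 alone, and was named after its values were seen. Over the 29 large-subunit genes with bacterial ancestors 15 were above 0 and the median difference was 0.034, with 0 passing and 7 at an unadjusted p under 0.05 (limma).

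Of the 18 large-subunit proteins without a bacterial counterpart 13 were above 0, with a median of 0.10. This is the class of Mrpl44, and its division from the others was drawn after the values were seen. Mrpl41 had 4274, 3739, 3239, 2916 and 3046 in calorie-restricted and 2716, 2538, 2576, 2974 and 2089 in control kidney. Only calorie-restricted replicate 4 fell inside the control range, and the difference was 0.41 ± 0.12 (adjusted p = 0.06), with 0.26 in replicates 4 and 5 alone. Its other tested probe set had a difference of -0.0026. Mrpl39 averaged 7777 ± 926 and 6499 ± 377 (calorie restricted and control), a difference of 0.25 (0.058 to 0.45, adjusted p = 0.101), of which 0.065 was left in replicates 4 and 5 alone. Mrpl51 averaged 8210 ± 537 and 7490 ± 496 in the same order, a difference of 0.13 (-0.036 to 0.30, adjusted p = 0.303), and 0.20 in replicates 4 and 5 alone. Mrpl46 differed by 0.080 (-0.11 to 0.27), while Mrps11, which starts beside it, had a difference of -0.28 (-0.61 to 0.058). In Mrps11 the calorie-restricted values were 929, 907, 835, 1382 and 1416, against 1169, 1393, 1468, 1238 and 1209 in control kidney, so that replicates 1, 2 and 3 were below every control and replicates 4 and 5 were among them. Mrpl46 and Mrps11 differed by 0.27 and 0.19 in replicates 4 and 5 alone, and both were named after their values were seen.

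**Figure D2:**
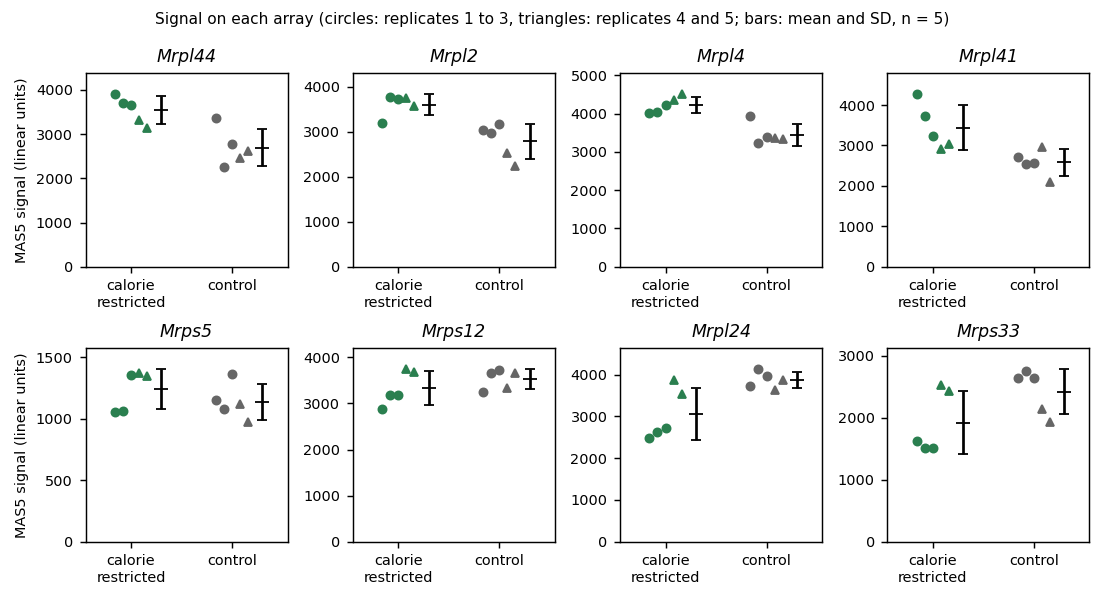
MAS5 signals of 8 genes are plotted for every array from 0 in linear units, calorie restricted on the left and control on the right of each panel, with circles for replicates 1 to 3, triangles for replicates 4 and 5, and the mean with SD (n = 5) as a bar. In Mrpl2 and Mrpl4 the diets do not overlap, whereas in Mrpl24 and Mrps33 the calorie-restricted circles lie below every control. Both calorie-restricted triangles of Mrps33 lie among the controls, as does 1 of those of Mrpl24, the other lying just below them.

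In the small subunit 0 of 29 genes passed, with 5 at an unadjusted p under 0.05 (limma). Mrps24 was the highest. It had 4393, 4280, 3649, 3384 and 3507 in calorie-restricted and 2819, 3104, 3037, 3400.5 and 2913 in control kidney. All calorie-restricted values but replicate 4 were above every control, and the difference of 0.33 ± 0.099 did not pass (adjusted p = 0.062). It was 0.13 in replicates 4 and 5 alone. Its second probe set had a difference of -0.14, and it was named after its values were seen.

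Mrps5, a small-subunit protein whose lower expression went with longer life in mouse strains and in worms, had 1055, 1066, 1357, 1375 and 1349 in calorie-restricted kidney and 1151, 1081, 1364, 1118 and 969.6 in control kidney. The groups overlapped. The difference was 0.12 ± 0.12 with a 95% interval of -0.14 to 0.39 (adjusted p = 0.553). In replicates 4 and 5 alone it was 0.39 (adjusted p = 0.237), and in the fit that also held the 3′ to 5′ ratio 0.33 (adjusted p = 0.324). Of its other tested probe sets, 2 had differences of 0.0041 and 0.069, and the third had 0.56 at an adjusted p of 0.0557.

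Other small-subunit genes, named whatever their values, gave 95% intervals that held 0. Mrps12, of the decoding centre, had a difference of -0.086 (95% interval -0.29 to 0.12) and Mrps16, a protein mutated in human mitochondrial disease, -0.073 (-0.31 to 0.17). Mrps22 and Mrps34, which have no bacterial counterpart, had -0.14 (-0.44 to 0.16) and 0.075 (-0.098 to 0.25). Mrps30, which bears a small-subunit name but sits in the large subunit of mammalian structures, had 0.047 (-0.18 to 0.28). These 5 genes, in the order named, had 0.090, 0.17, 0.27, 0.17 and 0.045 in replicates 4 and 5 alone. Mrps6, read from the brightest probe set of all 76, averaged 10854 ± 774 in calorie-restricted and 9512 ± 1237 in control kidney, a difference of 0.20 (-0.0074 to 0.40, adjusted p = 0.207) that was 0.056 after quantile normalization and 0.046 in replicates 4 and 5 alone. Counting Mrps18a and Mrps30 with the large subunit and leaving out Mrps36, now known as part of the oxoglutarate dehydrogenase complex, gave medians of 0.048 for 49 large-subunit and 0.011 for 26 small-subunit genes.

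The lowest differences of the small subunit were those of Mrps33 and Mrps18c, and in both the arrays with high 3′ to 5′ ratios stood apart. Mrps33 had 1627, 1513, 1503, 2529 and 2422 in calorie-restricted and 2636, 2757, 2641, 2135 and 1931 in control kidney. Mrps18c, one of several mammalian homologs of bacterial S18, had 2221, 2123, 1974, 3082 and 2754 in calorie-restricted and 3030, 3401, 3516, 3283 and 2239 in control kidney. In each gene calorie-restricted replicates 1, 2 and 3 were below all controls and replicates 4 and 5 were inside the control range. The differences over all arrays were -0.36 ± 0.17 and -0.35 ± 0.15 (adjusted p = 0.187 and 0.15), and in replicates 4 and 5 alone they were 0.29 and 0.10.

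Beyond the brightest probe set of each gene, 2 more probe sets of these genes passed the test, in opposite directions. Over all tested probe sets 2.93% passed as higher and 3.16% as lower, against 2 and 1 of the 129 tested here. The dimmer probe set of Mrpl34, a protein with a bacterial counterpart, had 379, 371, 311, 294 and 371 in calorie-restricted and 210, 252, 247, 231 and 258 in control kidney. These groups did not overlap, and the difference was 0.52 ± 0.13 (adjusted p = 0.0374). The brightest probe set of Mrpl34 had a difference of -0.13 (-0.50 to 0.24, adjusted p = 0.66), and 0.48 in replicates 4 and 5 alone. The dimmer probe set of Mrps23 had 245, 201, 225, 377 and 339 in calorie-restricted and 453, 740, 624, 433 and 306 in control kidney, overlapping through control 5, with a difference of -0.86 ± 0.24 (adjusted p = 0.0478) that was -0.026 in replicates 4 and 5 alone. The brightest probe set of Mrps23 had -0.26 (-0.51 to -0.0084, adjusted p = 0.179), and 0.0052 in replicates 4 and 5 alone. Of all 53 other tested probe sets of these genes, 26 (49.1%) had the direction of the brightest one, against 59.1% of 7776 such probe sets of other genes. Both genes were singled out after their values were seen.

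Within each diet the arrays differed in the typical level of the whole set. With each gene centred on its own mean, the median over the 76 genes was -0.023, -0.095 and -0.043 on calorie-restricted arrays 1, 2 and 3, and 0.13 and 0.095 on calorie-restricted arrays 4 and 5. On control arrays 1 to 5 it was 0.046, 0.0089, 0.093, 0.0036 and -0.14. The lowest array was thus control 5, the highest calorie-restricted 4, and the calorie-restricted arrays below 0 were those with the high 3′ to 5′ ratio. Replicates 1 to 3 minus replicates 4 and 5 gave a median of -0.18 within the calorie-restricted diet, with 59 of 76 genes below 0 (77.6%, against 52.7% of all tested genes), and of 0.12 within the control diet, with 12 of 76 below 0 (15.8%, against 54.4%). The large and the small subunit each had a median of -0.18 in calorie-restricted and 0.12 in control kidney, and the difference between the subunits was not tested. By ancestry, the calorie-restricted medians were -0.23 and -0.11 for the large-subunit genes with and without bacterial ancestors, and -0.13 and -0.25 for those of the small subunit.

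**Figure D3:**
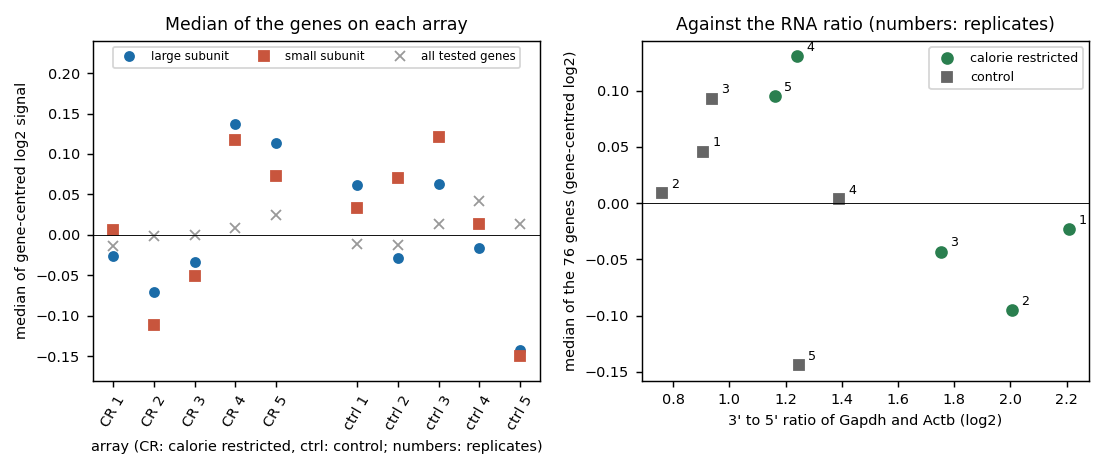
Left, the median of gene-centred log2 signals on each array for the 47 large-subunit genes (circles), the 29 small-subunit genes (squares) and all tested genes (crosses), calorie-restricted arrays first. Right, the median of the 76 genes against the log2 3′ to 5′ ratio of Gapdh and Actb, with replicate numbers beside the points: calorie-restricted replicates 4 and 5 are highest, and control replicate 5 is lowest.

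In replicates 4 and 5 of each diet, whose 3′ to 5′ ratios averaged 1.20 in calorie-restricted and 1.32 in control kidney, the median difference of the 76 genes was 0.20 and 71 lay above 0. Over all tested genes the median was -0.011 and 48.5% lay above 0. The large subunit had a median of 0.21 and the small subunit 0.17. No gene of the set passed the test (limma, 0 of 76, with 18 at an unadjusted p under 0.05), against 1.01% of all genes with 2 mice per diet. Those 18 were 23.7% of the set, against 17.7% of all genes and 21.8% of the genes of like brightness. So few genes passed in this subset that a count of 0 of 76 does not set the genes apart. Of the 32 genes below 0 in all arrays, 29 were above 0 here, and of the 44 above 0, 2 were below. Control 5, the array with the lowest median, makes up one of the 2 controls in this subset, and without control 5 the full comparison gave a median of 0.00093 over the 76 genes. Controls 1, 2 and 3, which the subset leaves out, had 3′ to 5′ ratios of 0.91, 0.76 and 0.94. With calorie-restricted replicates 4 and 5 set against every control, the large subunit had a median of 0.14 and the small subunit 0.093. With the 3′ to 5′ ratio added to the fit of all 10 arrays as a covariate, the median was 0.12 with 65 of 76 above 0, against 49.7% of all genes above 0. Again no gene of the set passed (limma, 0 of 76, with 12 at an unadjusted p under 0.05), but of the 2031 genes of like brightness only 2 passed, 1 higher and 1 lower. The 12 were 15.8% of the set, against 14.4% of all genes and 16% of the genes of like brightness.

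**Figure D4:**
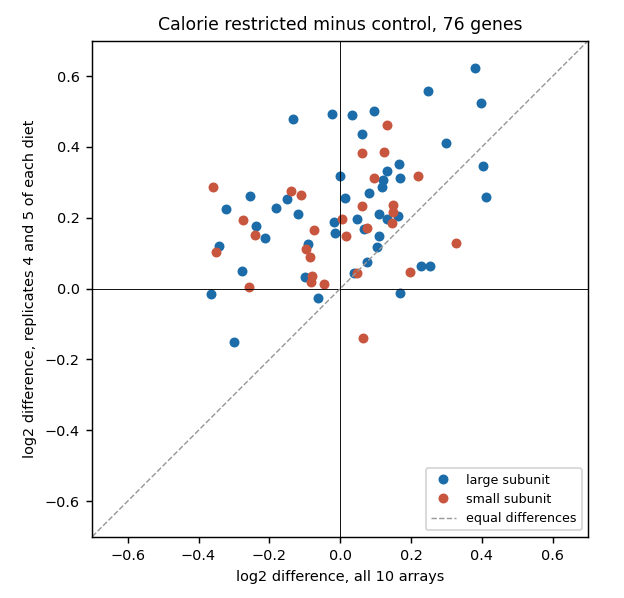
Each point is a gene, with its log2 difference (calorie restricted minus control) over all 10 arrays on the x axis and over replicates 4 and 5 of each diet on the y axis, and the dashed line marks equal differences. On the x axis 44 of 76 genes are above 0, on the y axis 71 of 76.

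Across all genes the difference between the diets drifted with brightness. The median of other genes was -0.052 in the bin of mean log2 signal that starts at 9, 0.031 in the bin that starts at 11.5 and 0.33 in the bin that starts at 14.5. Taking from each mitochondrial ribosomal protein gene the median of its brightness bin left a median of 0.047, with 0.050 in the large and 0.018 in the small subunit. Quantile normalization gave a median of 0.055 over the 76 genes, with 0 passing and 12 at an unadjusted p under 0.05 (limma). These 12 were 15.8% of the set, against 25.5% of all genes and 32.6% of the genes of like brightness.

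**Figure D5:**
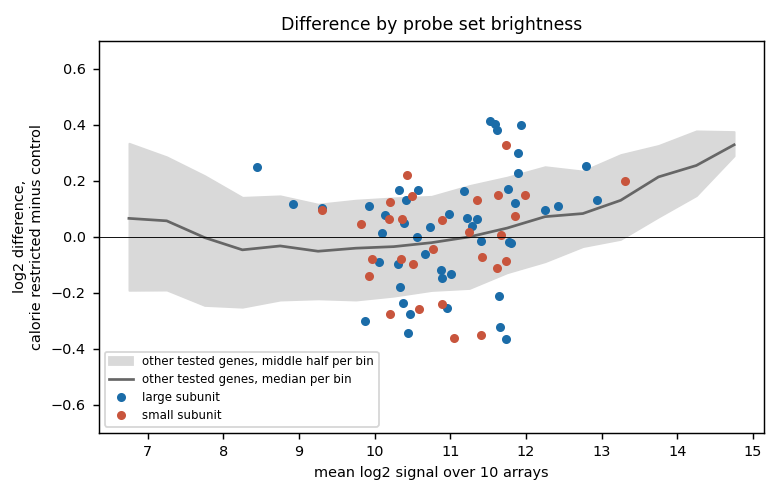
Log2 difference, calorie restricted minus control, against mean log2 signal over 10 arrays. The line and the band are the median and the interquartile range of other tested genes per bin of 0.5, and the points are the large-subunit (blue) and small-subunit (red) genes. The line climbs to 0.33 at the bright end, beyond the brightest point of the set, and the points scatter on both sides of it.

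The cytosolic ribosome and the respiratory chain are the closest families. Of 42 cytosolic ribosomal proteins tested 11 rose, with a median difference of 0.15, and of 34 complex I subunits, part of the respiratory chain that mitochondrial ribosomes feed, 13 rose, with a median of 0.18. Of all tested genes 3.08% rose, a share not matched to these families for brightness. Both families are brighter, and after the median of each brightness bin was taken off the medians were -0.043 and 0.011. After quantile normalization they were -0.023 and 0.029, with 0 and 4 higher calls. The difference between the families was not tested.

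Lists of other genes of mitochondrial translation, fixed for their function, held no call. None of 4 mitoribosome proteins with other names passed (1 at an unadjusted p under 0.05, limma), and their median difference was -0.075. Dap3, a GTP-binding protein of the small subunit, averaged 2696 ± 437 in calorie-restricted and 2834 ± 252 in control kidney, a difference of -0.081 (95% interval -0.32 to 0.16). Chchd1, another small-subunit protein, averaged 3864 ± 562 and 4713 ± 472 in the same order, a difference of -0.29 (-0.53 to -0.054, adjusted p = 0.117). None of 12 translation factors passed (2 at an unadjusted p under 0.05), with a median of -0.014. The elongation factors Tufm and Gfm1 had differences of 0.45 ± 0.14 and 0.29 ± 0.10 (adjusted p = 0.0666 and 0.101). Over all alternatives tried, these differences ran from 0.088 to 0.52 and from 0.19 to 0.58. None of 17 aminoacyl-tRNA synthetases and amidotransferase subunits passed (3 at an unadjusted p under 0.05), with a median of 0.045. Hars2, for histidine, had a difference of -0.41 ± 0.15 and Lars2, for leucine, 0.28 ± 0.13 (adjusted p = 0.0986 and 0.185). Over all alternatives, Hars2 ran from -0.52 to -0.017 and Lars2 from 0.025 to 0.34.

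Of 24 assembly and rRNA modification factors none passed (5 at an unadjusted p under 0.05, limma), with a median of 0.054. Eral1, a chaperone of the small-subunit rRNA, had 1265, 1310, 1017, 973 and 1059 in calorie-restricted and 771, 760, 812, 969 and 946 in control kidney. The diets did not overlap, and the difference of 0.40 ± 0.12 (adjusted p = 0.063) was 0.085 in replicates 4 and 5 alone. Mterf3, a factor of mitochondrial ribosome biogenesis, had a difference of -0.50 ± 0.15 (adjusted p = 0.064), which was 0.028 in those replicates. Of 13 genes of mitochondrial transcription and RNA stability none passed (3 at an unadjusted p under 0.05), with a median of -0.10. Polrmt, the mitochondrial RNA polymerase, had 0.36 ± 0.11 (adjusted p = 0.0645), and Ssbp1, which coats single-stranded mitochondrial DNA, -0.23 ± 0.090 (adjusted p = 0.121). Over all alternatives tried, Polrmt ran from 0.058 to 0.43 and Ssbp1 from -0.33 to -0.19.

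Of 15 regulators of mitochondrial gene expression 1 passed, with a median difference of -0.012 over the list. Ppargc1b, a coactivator that raises expression of nuclear genes for mitochondria, had 1480, 1051, 1520, 785 and 775 in calorie-restricted kidney and 632, 537, 766, 730 and 679 in control kidney. The diets did not overlap, but calorie-restricted replicates 4 and 5 were close to the highest control. The difference was 0.70 ± 0.19 (adjusted p = 0.0493), against 0.15 in replicates 4 and 5 alone (adjusted p = 0.672). Without calorie-restricted replicate 1, 2 or 3 the adjusted p was 0.117, 0.102 or 0.115, and without any 1 control it was 0.0717 to 0.115. Over all alternatives tried it ran from 0.0202 to 0.672.

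The factors whose letters were searched in the promoters were named after their values were seen. Nrf1 had 292, 325, 262, 256 and 341 in calorie-restricted and 204, 197, 220, 238 and 185 in control kidney. The diets did not overlap, and the difference of 0.50 ± 0.14 just missed the threshold (adjusted p = 0.0534), with 0.49 in replicates 4 and 5 alone. Gabpa, the DNA-binding part of GABP, had a difference of -0.29 ± 0.14 and Yy1 one of -0.26 ± 0.098 (adjusted p = 0.195 and 0.112). The mitochondrial ribosomal protein genes were divided by exact letters, so a gene counted as without a motif can hold another spelling of it. Among them, the 8 with the NRF1 core had a median difference of 0.010, against 0.047 in the 59 without it. In replicates 4 and 5 alone these medians were 0.11 and 0.20. The 24 with the ETS motif had -0.044, against 0.048 in the 43 without it, and in replicates 4 and 5 alone 0.21 against 0.19. The 13 with the YY1 letters had 0.039, against 0.040 in the 54 without them, and in replicates 4 and 5 alone 0.13 against 0.21. The 5 with the E-box had 0.063, against 0.026 in the 62 without it, and in replicates 4 and 5 alone 0.20 against 0.20.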

How the data were processed

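Kidney RNA of 10 mice, 5 per diet, was measured on 10 arrays. Per the submitters' processing notes, the authors made MAS5 signals in Affymetrix Expression Console, deposited as a linear intensity per probe set. With 2% trimmed from each tail, every array of this deposited intensity table averaged 500.0, so arrays share a trimmed mean but not a distribution. The number of arrays limits the precision, and detection calls were not used here.

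Signals below 1 were set to 1 and log2 was taken. Probe sets whose mean log2 signal reached the median of all, 6.81, were tested (22517 probe sets, 12196 genes with a single symbol) with limma 3.58.1 in R 4.3.3 (lmFit, eBayes with intensity trend, 2-sided, Benjamini-Hochberg over every tested probe set, threshold 0.05). Differences are log2, calorie restricted minus control, ± SE. Symbols came from the platform annotation, and 932 probe sets with several symbols were left out. Probe sets that can bind related transcripts are uncertain as to the single gene. On simulated data the fit was tested before use. Each array is 1 mouse. The replicate numbers of the labels showed no positive pairing of the mice. The deviations of same-numbered arrays correlated at -0.14 to -0.087, mostly lower than the -0.092 to 0.16 of other pairs. The cause of this was not tested.

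The members, gene lists, rule for named genes and tests were chosen with earlier results of these data known. Named were genes past the threshold, the 3 highest and 3 lowest differences among the rest, the 3 brightest and 2 dimmest, a fixed list, members with opposed probe sets, and up to 3 genes per list. The alternatives tried were other filters, quantile normalization, median centring, log2(signal + 50), other eBayes settings, array weights, the 3′ to 5′ RNA ratio as covariate, replicates 4 and 5 alone, a replicate block, each array left out, averaging the probe sets per gene and other thresholds. Subunits by structure were added after the data were seen.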

Additional observations from a re-analysis of the deposited data

Results flagged for a closer look

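Of 92 groups of 5 arrays checked for the named genes, 2 held an array whose gap to its nearest neighbour, divided by the range of the group, was above the critical value of 0.71. Chance gives about 1 such group in 20. In Mrps16 control 3 was the highest control, with a log2 signal of 11.66 and a gap of 0.726 of the range. In Mrpl4 control 1 was the highest control, with a log2 signal of 11.95 and a gap of 0.771 of the range, which left it just under the lowest calorie-restricted array.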

How the results depend on the processing

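In the 76 genes, 1 passed as higher and 0 as lower. The count of higher genes was 0 without a filter, with quantile normalization, with median centring, without the intensity trend, with the 3′ to 5′ RNA ratio as covariate (also after quantile normalization), in replicates 4 and 5 of each diet (also after quantile normalization), with calorie-restricted 4 and 5 set against every control and at a threshold of 0.01. It was 4 with the stricter filter, 5 with array weights and 6 at a threshold of 0.10, and 0 to 3 when each array was left out. The count of lower genes was 1 with array weights and at 0.10, and 0 to 1 when each array was left out. With the replicate number as a block, although the numbers showed no positive pairing, 0 genes passed and the adjusted p of Mrpl44 was 0.0971 (limma). Over all tested probe sets 1371 passed. This was 287 without a filter, 751 with quantile normalization, 243 without trend, 2292 with array weights, 9 with the ratio as a covariate, 5 with the covariate after quantile normalization, 198 in replicates 4 and 5, 156 there after quantile normalization, 1 with calorie-restricted 4 and 5 set against every control, 127 with the replicate block, 1 at 0.01, 3246 at 0.10, and 125 to 2481 when each array was left out. The lowest of these counts was without control 2 and the highest without calorie-restricted replicate 5.

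Median centring moved the median over all genes to -0.10, the large subunit to -0.035 and the small to -0.081. The large subunit had 0.17 with the covariate after quantile normalization. In replicates 4 and 5 the subunits had 0.21 and 0.17 (large and small), and 0.24 and 0.17 after quantile normalization. The median of the 76 genes against their brightness bins was 0.20 in replicates 4 and 5, and 0.20 after quantile normalization. It was 0.10 with calorie-restricted 4 and 5 set against every control, where the subunits had 0.14 and 0.093 (large and small).

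Differences of single genes turned sign in 61 of 1048 repeats. With the ratio as a covariate Mrps33 had 0.098, Mrps12 0.088, Mrpl11 0.14, Mrps16 0.086, Mrps22 0.089, Mrpl34 0.34, Mrps11 0.088 and Dap3 0.072. After quantile normalization as well, Mrps33 had 0.097, Mrps6 -0.027, Mrps12 0.063, Mrpl11 0.15, Mrps16 0.069, Mrps22 0.13, Mrpl34 0.34, Mrps11 0.12 and Dap3 0.056. In replicates 4 and 5 Mrps33 had 0.29, Mrps18c 0.10, Mrps12 0.090, Mrpl11 0.25, Mrps16 0.17, Mrps22 0.27, Mrpl34 0.48, Mrps23 0.0052, Mrps11 0.19, Chchd1 0.029, Dap3 0.16 and Mterf3 0.028. There after quantile normalization Mrps33 had 0.28, Mrps18c 0.084, Mrps6 -0.11, Mrpl39 -0.018, Mrps12 0.059, Mrpl11 0.27, Mrps16 0.15, Mrps22 0.33, Mrpl34 0.49, Mrps23 0.038, Mrps11 0.23, Gabpa 0.0088, Dap3 0.15 and Mterf3 0.050. With calorie-restricted 4 and 5 set against every control Mrps33 had 0.046, Mrps12 0.079, Mrpl11 0.064, Mrps16 0.097, Mrps22 0.052, Mrpl34 0.27, Mrps11 0.12 and Dap3 0.043. With the probe sets averaged per gene Mrpl1 had -0.024, Mrpl19 -0.23, Mrpl3 -0.042, Mrpl11 0.12 and Mrpl34 0.19. With median centring Mrps34 had -0.023, Mrps30 -0.051 and Mrpl46 -0.018. With each array left out Mrps16 had -0.12 to 0.013 (above 0 without calorie-restricted replicate 2) and Mrps30 -0.011 to 0.090 (below 0 without control 3). The cause of these turns was not tested. With 5 mice per diet, differences whose 95% interval holds 0 cannot be told from 0, and replicates 4 and 5 alone rest on 2 mice per diet.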

Other observations

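Probe sets whose annotation names a mitochondrial ribosomal protein together with another gene were not counted in the set, and 3 of them were tested. The one shared by Nme3 and Mrps34, which it does not tell apart, had 766, 923, 827, 1069 and 1036 in calorie-restricted kidney and 1506, 1254, 1277, 1300.4 and 1184 in control kidney. The diets did not overlap, and the log2 difference was -0.50 ± 0.12 (limma, adjusted p = 0.0302). After quantile normalization it was -0.45 (limma, adjusted p = 0.0506). In replicates 4 and 5 alone it was -0.24, and with the 3′ to 5′ ratio as covariate -0.30 (limma, adjusted p = 0.434 and 0.351). The probe set of Mrps34 alone had 0.075. The probe set shared by Ccdc142 and Mrpl53 had a difference of -0.31 ± 0.14 (adjusted p = 0.185), with calorie-restricted replicates 1, 2 and 3 below all controls. The one shared by Gm6238 and Mrpl30 had -0.17 ± 0.093 (adjusted p = 0.25).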
